A study of Mus musculus with 199 samples.

Results

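Interferon-stimulated genes are the genes that cells switch on when they sense interferon. The 39 genes described here were taken from the deposited table of read counts by matching Ensembl identifiers to a list of symbols, and all 39 were found among 37713 genes. They were followed in 199 libraries of bulk mouse RNA, sorted into 23 groups by their titles. The 3 kinds of library were analysed separately: whole tissue (65 libraries), Ly6G+ neutrophils (61) and CD3+ T cells (73).

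All mice were male wild-type C57BL/6. The tissue set held 15 liver tissues, 25 small tumours and 25 large tumours. Tumours came from DEN ALIOS mice, in which the carcinogen diethylnitrosamine (DEN) is combined with an American lifestyle diet (ALIOS) as a model of liver cancer on fatty liver disease. The titles also place the liver tissue in DEN ALIOS mice, whereas its treatment label reads Normal, so what this group controls for could not be settled. Sorted cells came from blood and from a second source called liver in the titles and tumours in the protocol; liver is used below. DEN ALIOS mice formed 4 treatment groups. Beside untreated mice there were mice given aPD1, which blocks the T cell checkpoint PD-1, mice given CXCR2i, which blocks a receptor that guides neutrophils, and mice given both, called the combination. The untreated group includes 6 libraries labelled Vehicle, and the CXCR2i group 16 labelled as also given an aPD1 isotype antibody. Neutrophils of these groups numbered 6, 5, 10 and 8 in liver and 7, 5, 10 and 10 in blood. T cells numbered 6, 5, 6 and 5 in liver and 7, 5, 6 and 5 in blood. T cells were also sorted from mice given PBS (8 livers, 8 bloods) and from mice given CXCR2i without DEN ALIOS (6 livers, 6 bloods).

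Interferons act through receptors that activate the JAK kinases and the STAT proteins. Type I interferon assembles a complex that includes STAT2 and IRF9, which binds an interferon-stimulated response element (ISRE) near the start of its target genes. Interferon gamma, made by T and NK cells, acts on genes that carry a gamma activated sequence. In liver tumours, interferon signals are known for their bearing on antigen presentation and on the recruitment of T cells. In neutrophils an interferon program marks a subset of circulating cells. The Mx1 and Mx2 proteins are known to be defective in C57BL/6 mice, although the transcripts can still be measured.

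The 39 genes fall into 8 roles. Sensors of viral or abnormal nucleic acid are Ifih1 (MDA5), Ddx58 (RIG-I), Dhx58 (LGP2), Zbp1 and Eif2ak2 (PKR). The transcription factors are Irf7, Irf9 and Stat2. The ISG15 system holds Isg15, a ubiquitin-like modifier, its protease Usp18 and the ligase Herc6. The 4 IFIT genes encode proteins that bind foreign RNA, and the 5 OAS and OAS-like genes enzymes or relatives of enzymes that trigger RNA decay. The GTPases are Mx1, Mx2, Gbp2, Gbp3 and Gbp7. Other antiviral effectors are Rsad2 (viperin), its neighbour Cmpk2, the exonuclease Isg20, Slfn5, the virus tether Bst2, Trim30a, Parp14 and Sp100. Ifi27, Ifi27l2a, Ifi35, Ifi44, Xaf1 and Rtp4 complete the list.

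Many of the 39 genes lie beside one another. In the GENCODE annotation of the GRCm38 build, 8 clusters of neighbours less than 1000000 bases apart held 20 of them. Ifit2, Ifit3, Ifit3b and Ifit1 lie within chr19:34550694-34650009, Oas2, Oas3 and Oas1a within chr5:120730333-120907521, and Rsad2 and Cmpk2 within chr12:26442746-26479837. Overlap with another annotated gene was found for 16 of the 39, on the other strand for 13, and the strand used in counting is not given in the sources used here. Close copies such as Ifit3 and Ifit3b, and the neighbouring Oas and Gbp genes, can share reads, so a split between them is uncertain.

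A window of 300 bases, from 250 before to 50 after the transcription start, was available from RefSeq (GRCm38.p6) for 29 of the 39 genes. The ISRE core, searched as GAAA, any 2 bases and GAAA again on either strand, was present in 17 of these 29 windows (58.6%), against 3.99% of 27025 genes. The gamma activated sequence TTCNNNGAA was present in 7 of the 29 (24.1%), against 9.55% of genes. A match is a description of the letters and not a measured binding site. Promoters of 4 genes whose RNA is followed in detail below are shown, written 5′ to 3′ on the strand of the gene, with ISRE core letters in capitals. Isg15 (chr4:156200769-156201068, minus strand) holds 3 overlapping matches in tandem. Ifit1 (chr19:34640639-34640938, plus strand) holds 2 and Rsad2 (chr12:26456403-26456702, minus strand) 1, all on the opposite strand. Oasl2 (chr5:114896684-114896983, plus strand) has no such letters in its window and is shown for contrast.
Isg15: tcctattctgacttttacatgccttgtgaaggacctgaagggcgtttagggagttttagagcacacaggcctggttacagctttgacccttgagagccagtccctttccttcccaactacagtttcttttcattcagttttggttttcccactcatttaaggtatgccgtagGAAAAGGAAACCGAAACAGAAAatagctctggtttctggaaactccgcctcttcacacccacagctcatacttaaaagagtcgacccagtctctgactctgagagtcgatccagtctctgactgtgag
Ifit1: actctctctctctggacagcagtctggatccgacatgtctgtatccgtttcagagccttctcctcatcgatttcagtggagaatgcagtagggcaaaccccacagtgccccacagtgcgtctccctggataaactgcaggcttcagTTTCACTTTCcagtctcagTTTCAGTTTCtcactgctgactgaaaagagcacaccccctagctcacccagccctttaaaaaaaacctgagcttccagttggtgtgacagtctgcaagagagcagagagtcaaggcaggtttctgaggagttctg
Rsad2: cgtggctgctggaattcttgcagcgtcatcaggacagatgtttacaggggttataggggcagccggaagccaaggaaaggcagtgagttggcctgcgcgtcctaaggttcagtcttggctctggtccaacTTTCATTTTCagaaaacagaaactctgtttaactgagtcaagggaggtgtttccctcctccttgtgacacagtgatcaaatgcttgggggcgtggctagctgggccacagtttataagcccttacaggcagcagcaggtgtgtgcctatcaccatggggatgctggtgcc
Oasl2: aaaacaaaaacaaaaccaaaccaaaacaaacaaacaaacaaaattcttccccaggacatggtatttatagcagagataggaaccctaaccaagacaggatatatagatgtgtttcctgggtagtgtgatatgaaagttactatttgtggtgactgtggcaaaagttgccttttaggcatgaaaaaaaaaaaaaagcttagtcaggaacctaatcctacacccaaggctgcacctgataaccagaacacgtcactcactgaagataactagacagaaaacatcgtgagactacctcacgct

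Gene counts per library ranged from 12055434 to 21850190 in tissue, from 580113 to 9256224 in neutrophils and from 337110 to 10755816 in T cells. Levels are given as CPM (gene counts per 1000000 counts) after scaling within a kind of library, and differences as log2 fold changes ± standard error from edgeR, called at an adjusted p under 0.05 over all genes tested. Library groups called doubtful below are 4 sorted libraries under 1000000 gene counts, 4 neutrophil libraries above 20 CPM of the T cell gene Cd3e, and 4 tissue libraries above 10 CPM of the neutrophil gene S100a8. In bulk samples, fewer cells of a type and less RNA per cell cannot be told apart. The tissue labels name no animal, and tumours taken from a single mouse could be among the samples, so p-values there describe sample spread.

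Tumours did not carry a uniformly higher or lower interferon program than liver tissue. In large tumours 10 of the 39 genes were higher and 14 lower than in liver tissue, where 38.5% and 32.1% of all genes tested were called. In small tumours 9 were higher and 15 lower, beside 34.7% and 31.0% of all genes. The median difference over the 39 genes was -0.12 in large and -0.16 in small tumours, against 0.05 and 0.03 over all genes. The 3 transcription factors were all lower in both tumour sizes, whereas 3 of the 5 sensors (Ifih1, Ddx58 and Eif2ak2) were higher in both.

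Irf7, the factor that amplifies type I interferon production, had the lowest level relative to liver tissue. It lay between 33.3 and 87.2 CPM in large tumours, with a median of 60.6, and between 99.4 and 174 CPM in liver tissue, with a median of 110. The 2 ranges did not touch, and Irf7 was the only one of the 39 genes of which this was true in large tumours. The share of all genes with separate ranges is not given here, so this is no result about the 39 genes as a list. The difference was -0.97 ± 0.10 in large tumours (adjusted p = 4.62e-13) and -0.77 ± 0.10 in small ones (adjusted p = 1.35e-09), where the ranges overlapped. Irf9 and Stat2, which pair up in the type I complex, were lower by smaller amounts in large tumours, at -0.19 and -0.12.

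Ifi44, a cytoplasmic protein induced by type I interferon, moved the other way. It was at 24.7 ± 6.67 CPM in large tumours (SD, n = 25) and at 12.8 ± 3.49 in liver tissue (SD, n = 15), a log2 difference of 1.02 ± 0.12 (adjusted p = 6.76e-11). Isg20 (0.76), Oas1a (0.69), Isg15 (0.63) and Ifit2 (0.59) were also higher in large tumours. Individual large tumours overlapped liver tissue for each of these 5 genes. Isg15, for example, lay between 9.13 and 30.7 CPM with a median of 18.8 in large tumours, and between 8.7 and 16.1 with a median of 13.2 in liver tissue. Members of the same family could go in opposite directions. Oas1a rose while Oas3 (-0.55) and Oas2 (-0.41) fell, and in the ISG15 system Isg15 and Usp18 (0.33) rose while the ligase Herc6 fell (-0.50).

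The lower group also held Ifi27l2a (-0.79), Mx2 (-0.58), Bst2 (-0.49), Oasl1 (-0.46) and Gbp3 (-0.43). Bst2 had 156 ± 38.8 CPM in large tumours and 223 ± 25.7 CPM in liver tissue. Rsad2, at 14.8 ± 4.15 and 14.9 ± 3.85 CPM, gave no call (0.10 ± 0.13, adjusted p = 0.466). The small and large tumours differed in none of the 39 genes by edgeR, where 0.929% of genes were higher and 1.55% lower in large tumours; 4 of the 39 had an unadjusted p under 0.05 the smallest adjusted p was 0.207 and DESeq2 called 0. Cmpk2 was called only in large and Zbp1 only in small tumours, without a called difference between the tumour sizes.

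**Figure D1:**
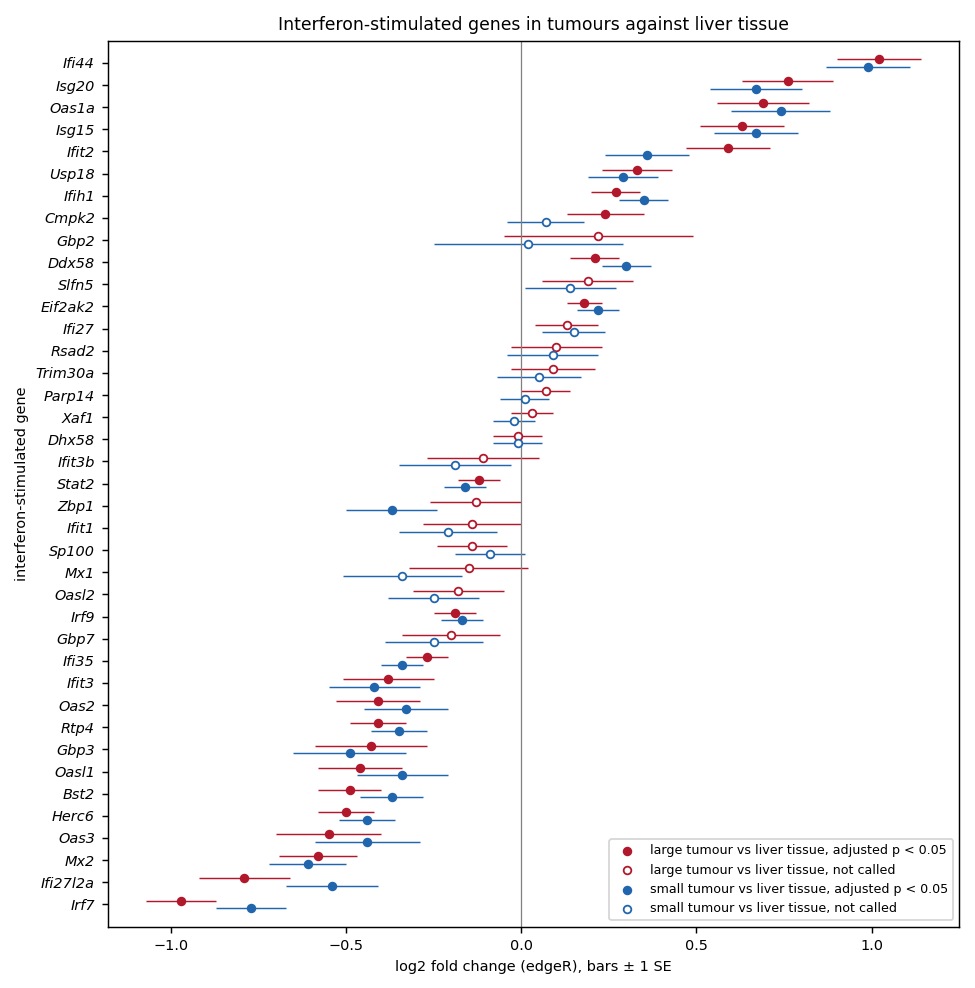
Log2 difference from liver tissue for each of the 39 genes in large tumours and in small tumours, with standard errors as bars and filled symbols for adjusted p under 0.05. Ifi44 lies farthest to the right at 1.02 and Irf7 farthest to the left at -0.97 in large tumours, and the 2 tumour sizes lie close together for most genes.

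Other genes of the pathway were counted in the same contrast, beside 38.5% of all genes higher and 32.1% lower in large tumours. No interferon gene of 17 matched passed the filter on low counts. Of 11 receptor and JAK-STAT genes, 9 were higher and 0 lower in large tumours, led by the lambda receptor chain Ifnlr1 (2.74 ± 0.26) and the gamma receptor chains Ifngr1 (1.46 ± 0.13) and Ifngr2 (0.61 ± 0.08). Among 15 interferon gamma targets tested, 8 were higher and 1 lower; the T cell chemoattractant Cxcl9 stood at 1.25 ± 0.28 and the MHC class II regulator Ciita at 0.96 ± 0.24. Of 26 other type I targets 5 were higher and 7 lower, with Parp9 at -0.80 ± 0.07 and its partner Dtx3l at -0.70 ± 0.08. Cell type markers moved as well. All 8 tissue macrophage markers were lower in both tumour sizes, their summed level running from 824 to 1503 CPM in liver tissue, from 303 to 951 in small and from 203 to 881 in large tumours. Of 6 plasmacytoid dendritic cell markers 3 were tested, and 2 were higher and 0 lower in both tumour sizes. The sum of the 6 ran from 14.2 to 72.7 CPM in liver tissue (median 26), from 60.4 to 585 in small (261) and from 6.78 to 632 in large tumours (353). That sum rested on part of the list, since 3 of the 6 in small and 2 in large tumours were under 1 CPM in every library. Klk1 and Cox6a2, for example, averaged 0.159 and 0.313 CPM in large tumours. Of 8 hepatocyte markers 5 were higher and 3 lower in large and 5 higher and 2 lower in small tumours, their summed median standing at 87191 CPM in liver tissue, 226419 in small and 205604 in large tumours. Of 7 T cell markers 6 were higher in large and 0 in small tumours, with summed medians of 3.8, 4.54 and 4.83 CPM in liver tissue, small and large tumours. The part of these cells in the differences of the 39 genes was not tested. Without the 4 doubtful tissue libraries 23 genes of the 39 were called in large and 25 in small tumours.

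With all libraries kept, neutrophils from the liver had lower levels of a set of type I interferon genes than blood neutrophils of the same mice. This was so in all 4 treatment groups, and a small second set was higher in liver. In untreated mice 7 of the 39 genes were higher and 9 lower in liver (26.2% and 17.1% of all genes). With aPD1 6 were higher and 18 lower (32.8% and 21.9%), with CXCR2i 5 and 14 (23.6% and 16.8%), and with the combination 4 and 21 (24.6% and 21.0%). The share called lower was therefore above that of all genes in each group, and the share called higher below it. In untreated and aPD1 mice these shares depended on the doubtful libraries, as described below. The median over the 39 genes was -0.24, -0.55, -0.30 and -0.54, against 0.15, 0.24, 0.09 and 0.06 over all genes.

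Called lower in liver in all 4 treatment groups were 7 genes: the sensor Ddx58, the factor Irf9, Oas2, Oasl2, Trim30a, Ifi27l2a and Rtp4. The share of all genes called in all 4 groups, in either direction, is not given here. Whether 7 is more than among other genes therefore cannot be read from this count. Irf9, Oas2 and Oasl2 were lower in the liver library of 29 of 29 mice. In untreated mice Irf9 lay between 61 and 131 CPM in liver, with a median of 95.8, and between 152 and 206 CPM in blood, with a median of 200. The 6 liver libraries all lay below the 6 blood libraries. The difference was -0.96 ± 0.19 (adjusted p = 0.000153), and it was -1.24, -0.66 and -0.92 with aPD1, CXCR2i and the combination.

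Oasl2, an OAS-like protein, showed the pattern in every mouse. With aPD1 its 5 liver libraries held 498, 206, 663, 111 and 898 CPM, and the blood libraries of the same mice 1075, 1437, 1312, 1831 and 1136 CPM. Every liver value was below every blood value. In the combination group Oasl2 had 403 ± 142 CPM in liver and 1168 ± 302 CPM in blood (SD, n = 8 mice), a difference of -1.56 ± 0.27 (adjusted p = 2.48e-05). Trim30a, which restrains inflammatory signalling, was at 263 ± 89 CPM in liver and 624 ± 115 CPM in blood in the same mice (-1.29 ± 0.23), and the 2 ranges did not overlap.

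Other genes reached the threshold in some groups only. Usp18, Ifit1, Ifit3, Ifit3b and Gbp7 were lower in 3 of the 4 groups, and in the combination group Ifit1 stood at 46.7 ± 23.4 CPM in liver and 108 ± 51.4 in blood (-1.16 ± 0.26). Rsad2 was called lower only with the combination (-0.97 ± 0.34), although across all mice its liver library was lower in 17 of 29. Dhx58, Zbp1, Oas1a, Gbp2, Parp14, Ifi35 and Xaf1 were called in neither direction in any group.

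The 4 genes higher in liver in every group were Mx1, Mx2, Bst2 and Ifi44, all of which were low in blood neutrophils. Among blood libraries alone these 4 were too low to be tested, so they passed the filter through the liver libraries. Their direction was therefore nearly fixed in advance, and the 4 calls are given as a description only. Without the doubtful libraries the calls of Mx1, Mx2 and Ifi44 in untreated mice were lost (adjusted p = 0.248, 0.775 and 0.0794, edgeR). The call of Mx1 with aPD1 was lost as well (adjusted p = 0.109). Ifi44 with aPD1 was at 8.62, 11.1, 9.63, 24.3 and 7.25 CPM in liver. In the blood of the same mice it was at 0, 0.129, 0, 0 and 0 CPM. Because blood values this low rest on few counts, no fold is given for these 4 genes. Bst2 was at 5.76 ± 2.37 CPM in liver and 0.801 ± 0.545 CPM in blood of untreated mice (SD, n = 6). Mx1 and Ifi44 were at 0 in some liver libraries as well, and Mx1 in untreated liver neutrophils lay between 0 and 66.1 CPM with a median of 1.3. Isg15, Ifit2 and Gbp3 were higher in liver in 2 groups each. Ifit2 was higher in untreated mice, at 63.5 ± 34 against 31.2 ± 12.5 CPM (0.97 ± 0.25, higher in 6 of 6 mice), and with aPD1 (0.95 ± 0.26, 5 of 5 mice). Its cluster neighbours Ifit1, Ifit3 and Ifit3b were not higher in any group.

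**Figure D2:**
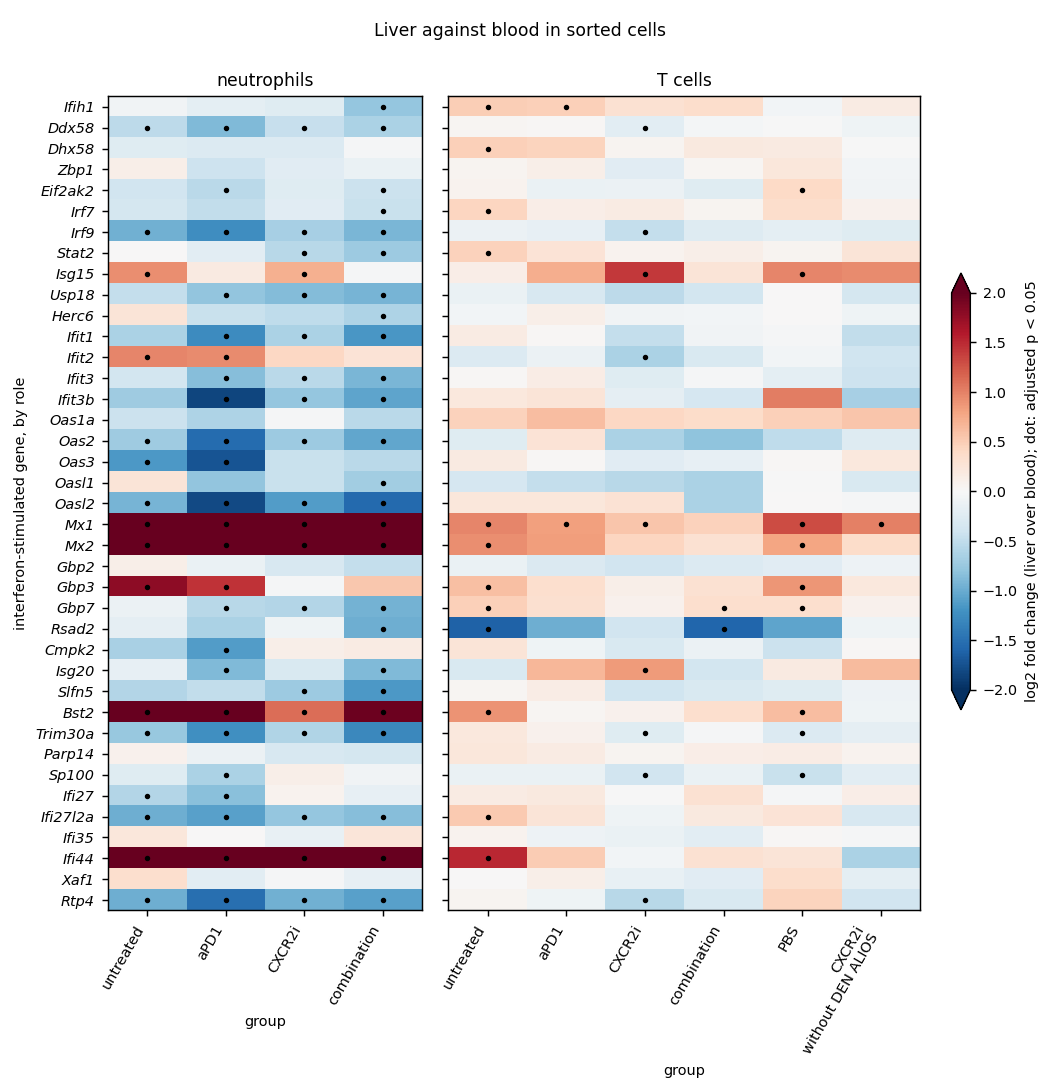
Log2 difference between liver and blood for the 39 genes (rows, ordered by role) in 4 neutrophil groups and 6 T cell groups (columns), with colour limited to ±2 and dots for adjusted p under 0.05. Mx1, Mx2, Bst2 and Ifi44, too low to be tested among blood neutrophils alone, are higher in all 4 neutrophil columns. Mx1 carries a dot in 5 of the 6 T cell columns.

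Markers of liver cells moved with the neutrophil contrast. The summed level of 8 tissue macrophage markers had medians between 0 and 0.191 CPM in the 4 blood groups, and of 196 (untreated), 734 (aPD1), 131 (CXCR2i) and 357 CPM (combination) in liver. In blood 4, 1, 0 and 2 of the 8 were at 0 in every library of the untreated, aPD1, CXCR2i and combination groups, and in liver 0. The sum ranged from 13.6 to 1434 CPM over the liver groups, and each of the 7 markers tested was higher in liver in every group. The same held for 7 of 7 hepatocyte markers tested, whose sum had medians of 344, 143, 80.4 and 121 CPM in liver and between 10.2 and 13.3 CPM in blood. Among blood neutrophils alone no tissue macrophage marker passed the filter on low counts, and of the hepatocyte markers only Alb and Trf did. For the others the direction was therefore nearly fixed in advance. Of 7 neutrophil markers 4, 7, 2 and 2 were lower in liver. Their sum lay between 17007 and 52611 CPM in blood and between 892 and 49566 CPM in liver, where the lowest library was in the aPD1 group. The part of these cells in the differences above was not tested.

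The liver against blood result depended on the doubtful libraries in untreated and aPD1 mice. Without them 6 genes were higher and 3 lower in untreated mice, and 6 and 6 with aPD1; the median of the 39 genes then stood 0.10 and 0.08 below that of all genes on the log2 scale, where it was 0.39 and 0.79 with them. The other 2 groups held 5 higher and 17 lower (CXCR2i) and 4 and 20 (combination). Only Irf9 and Oas3 were then lower, and only Bst2 higher, in all 4 groups. Scaling by RLE factors moved the median of all genes to 0.32, 0.45, 0.15 and 0.18, and the 39 genes stayed below it by 0.40, 0.79, 0.39 and 0.61, with 6, 14, 13 and 17 called lower. None of the 39 differed in its liver to blood difference between a treatment and untreated mice by edgeR. For aPD1, CXCR2i and the combination, 2, 6 and 9 genes had an unadjusted p under 0.05, and DESeq2 called 0, 2 and 2. Among all genes 0%, 0.460% and 1.69% were called higher and 0%, 0.101% and 0.740% lower.

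Elsewhere in the pathway, 11 receptor and JAK-STAT genes were tested in liver against blood neutrophils. Of these 1 was higher and 3 lower in untreated mice (26.2% and 17.1% of all genes), 1 and 6 with aPD1 (32.8% and 21.9%), 0 and 4 with CXCR2i (23.6% and 16.8%) and 1 and 6 with the combination (24.6% and 21.0%). With the combination Ifnar1, a chain of the type I receptor, was at -1.11 ± 0.17 and the gamma receptor chain Ifngr2 at -1.02 ± 0.17. Ifngr1 was also lower (adjusted p = 1.08e-05). Interferon gamma targets were split in that group, with 7 higher and 4 lower of 15. Among them Cxcl9 was at 25.8 ± 22.9 CPM in liver and 0.174 ± 0.261 CPM in blood, and Ciita at 30.3 ± 28.4 and 0.384 ± 0.517 CPM (SD, n = 8 mice).

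Treatment was compared with untreated DEN ALIOS mice within each site, with sequencing run sets as a term in the fit. These sets join the runs named in the labels, and are called A to F; all untreated libraries are in set A and all aPD1 libraries in set B. In liver neutrophils no gene of the 39 was called with aPD1 by edgeR, as for all genes (0% higher, 0% lower); 4 had an unadjusted p under 0.05 and DESeq2 called 0. With CXCR2i 1 was lower, beside 0.109% of all genes higher and 0.0335% lower. With the combination 5 were lower and 0 higher, beside 5.66% of all genes higher and 5.12% lower.

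The 5 genes lower with the combination in liver neutrophils were Rsad2, Isg20, Isg15, Ifit2 and Ifih1. Rsad2 lay between 74.1 and 411 CPM with a median of 170 in the 8 combination libraries, and between 346 and 626 CPM with a median of 517 in the 6 untreated ones. The highest combination library reached into the untreated range. The difference was -1.88 ± 0.43 (adjusted p = 0.00685). Isg20 lay between 23.5 and 55.1 CPM in the combination group and between 62.9 and 124 CPM in untreated mice, with no overlap (-1.26 ± 0.37, adjusted p = 0.03). The call of Isg20 was lost without the libraries labelled Vehicle or isotype (adjusted p = 0.0531). Isg15 had medians of 36.3 and 74.5 CPM (-1.57 ± 0.43) and Ifit2 medians of 32.6 and 58.2 CPM (-1.53 ± 0.36), both with overlapping ranges. The sensor Ifih1 was the fifth, at -0.87 ± 0.27 (adjusted p = 0.0406), and the gene was not called without the doubtful libraries (adjusted p = 0.0586).

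Within run set A alone, which holds 5 of the 8 combination libraries, 3 genes were lower: Rsad2 (-1.95), Isg15 (-1.58) and Isg20 (-1.31). Without the doubtful libraries 10 were lower and 0 higher, among them Irf7 and Oasl2. With CXCR2i alone, Ifit2 was the single gene called, at 24.5 ± 6.4 CPM against 63.5 ± 34 in untreated mice (-2.47 ± 0.46, adjusted p = 0.02). Rsad2 stood at -2.01 ± 0.54 with CXCR2i (adjusted p = 0.103) and at -1.81 ± 0.59 with aPD1 (adjusted p = 0.766). The 3 treatments share their untreated libraries. The Ifit2 call was lost when libraries labelled Vehicle or isotype were left out. Other pathway genes called with the combination included Ifnar1 (-1.07 ± 0.28), Jak2 (-0.98 ± 0.31), Irf3 (-0.96 ± 0.23) and the kinase Ikbke (-1.65 ± 0.37), all lower, and the antiviral membrane protein Ifitm3, which was higher (1.06 ± 0.34). Of 6 plasmacytoid dendritic cell markers 4 were tested and 2 were lower, and 2 of 7 T cell markers were lower. Summed medians with the combination and in untreated mice were 29785 and 19676 CPM for neutrophil markers and 357 and 196 for tissue macrophage markers. They were 2.04 and 36.6 CPM for B cell markers and 121 and 344 for hepatocyte markers. The ranges of each of these sums overlapped. The neutrophil marker Ly6g was at 130 ± 39 and 15.5 ± 13.3 CPM (SD). The part of these cells in the differences was not tested.

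In blood neutrophils 35 of the 39 genes were tested; Mx1, Mx2, Bst2 and Ifi44 were too low. With aPD1 none was called by edgeR (0% of all genes in each direction) and none had an unadjusted p under 0.05; DESeq2 called 0. With CXCR2i 7 were lower and 0 higher, beside 3.05% of all genes higher and 3.85% lower. With the combination 4 were lower and 0 higher, beside 6.57% and 8.38%.

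Rsad2 in blood neutrophils lay between 136 and 471 CPM with a median of 190 in 10 CXCR2i mice, and between 390 and 1141 CPM with a median of 542 in 7 untreated mice. Only the highest CXCR2i value reached the untreated range. The difference was -1.93 ± 0.40 (adjusted p = 0.00498). Ifi27l2a (-1.72 ± 0.47), its neighbour Ifi27 (-1.42 ± 0.28), Cmpk2 (-1.44 ± 0.38), Oas3 (-1.18 ± 0.26), Isg15 (-1.09 ± 0.33) and Irf7 (-0.99 ± 0.31) were the other 6. Ifi27l2a (-1.27 ± 0.37), Cmpk2 (-1.06 ± 0.28), Ifi27 (-0.83 ± 0.21) and Oas3 (-0.70 ± 0.19) were also lower with the combination, where Rsad2 was not called (-0.71 ± 0.29, adjusted p = 0.105). The 10 combination libraries for Rsad2 ran from 162 to 1554 CPM, and the highest was the single library of run set D. Leaving out the libraries labelled Vehicle or isotype left 1 gene with CXCR2i (Ifi27) and 0 with the combination, and within run set A the combination had 1 (Cmpk2).

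**Figure D3:**
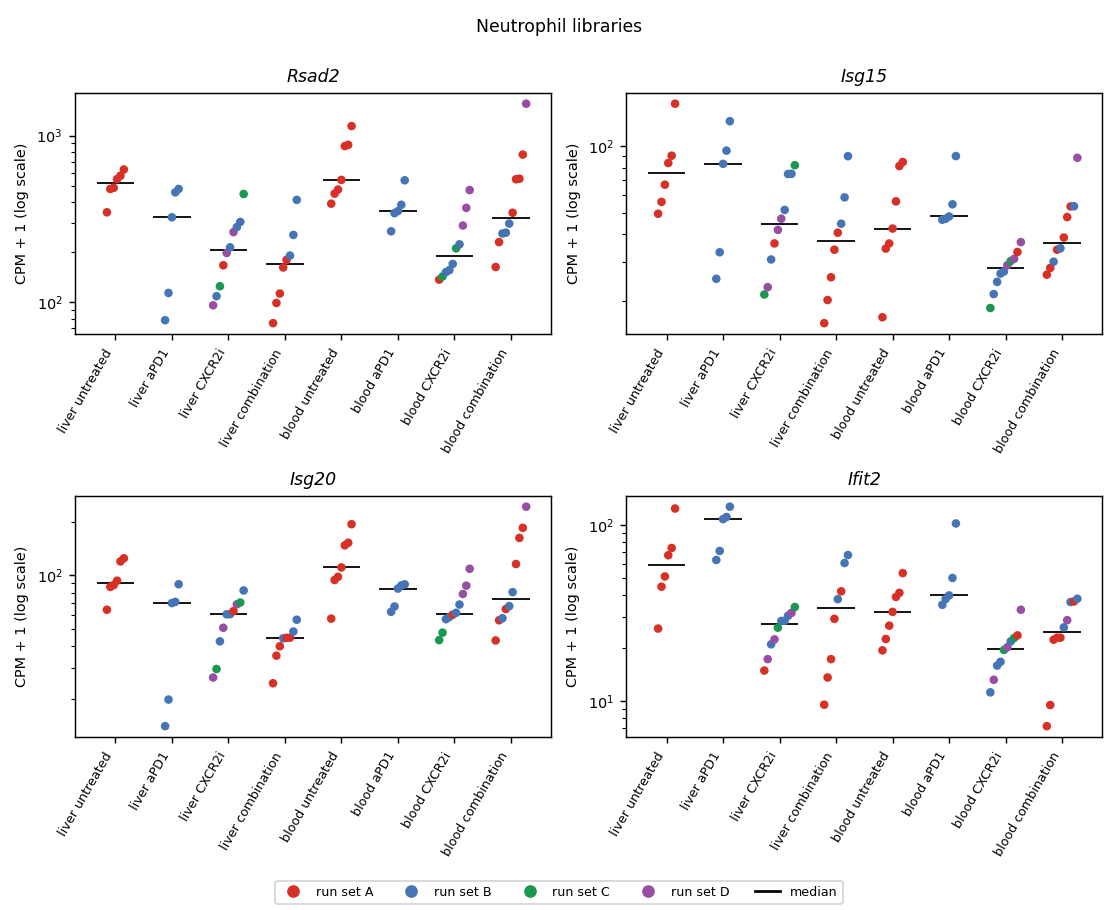
Level in CPM + 1 on a log axis of Rsad2, Isg15, Isg20 and Ifit2 in each neutrophil library, by site and treatment, coloured by run set, with a bar at the group median. In liver, every Isg20 value of the combination group lies below every untreated value, from 23.5 to 55.1 against 62.9 to 124 CPM.

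T cells and neutrophils were not tested against each other. The T cell libraries held between 783 and 3244 CPM of 7 summed T cell markers. In untreated DEN ALIOS mice 11 of the 39 genes were higher and 1 lower in liver T cells than in blood T cells of the same mice, beside 19.8% and 13.2% of all genes. With aPD1 2 were higher and 0 lower (9.25% and 7.31%), with CXCR2i 3 and 6 (19.9% and 14.1%), and with the combination 1 and 1 (8.88% and 7.31%). In PBS mice 7 were higher and 2 lower (18.4% and 16.6%), and with CXCR2i without DEN ALIOS 1 and 0 (10.0% and 6.58%).

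Mx1 was the gene most often called, higher in liver in 5 of 6 groups and in 34 of 36 mice. In untreated mice it lay between 35.8 and 59.7 CPM in liver, with a median of 53.2, and between 19.9 and 33.4 in blood, with a median of 24.1. In PBS mice it lay between 18.6 and 30.2 CPM in liver, with a median of 23.4, and between 6.15 and 11.3 in blood, with a median of 9.28. Neither pair of ranges overlapped, whereas PBS liver T cells shared most of the range of untreated blood T cells. The differences were 0.98 ± 0.18 (adjusted p = 6.24e-05) and 1.31 ± 0.19 (adjusted p = 3.83e-06). In the combination group the 5 liver libraries held 48.9, 31.5, 40.7, 38 and 41.6 CPM and the blood libraries of the same mice, in the same order, 20.7, 37.4, 35.2, 29.3 and 24.7 CPM. Those ranges overlapped and no call was made (0.46 ± 0.20, adjusted p = 0.11).

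The GTPases Gbp3 and Gbp7 followed Mx1 in part. Gbp7 was higher in 3 groups (untreated, combination and PBS), although its call in the combination group was lost without the mouse of any of liver replicates 1, 2, 3 and 4. Gbp3 was higher in 2 groups, at 71.8 ± 11.2 against 47.2 ± 4.4 CPM in untreated mice (0.60 ± 0.16) and 59 ± 20.9 against 29.9 ± 3.31 CPM in PBS mice (0.88 ± 0.15). In untreated mice the sensors Ifih1 (0.49) and Dhx58 (0.48), the factors Irf7 (0.43) and Stat2 (0.46), and Mx2, Bst2, Ifi27l2a and Ifi44 were also higher. In the CXCR2i group Isg15 was higher, at 13.1 ± 5.42 against 4.6 ± 0.979 CPM (1.42 ± 0.34), as was Isg20 (0.85), while Irf9, Sp100, Trim30a, Rtp4, Ddx58 and Ifit2 were lower. The edgeR calls of Isg20 and Rtp4 were lost without CXCR2i replicate 4 (adjusted p = 0.0864 and 0.142). Both were also lost without the animal as a block (adjusted p = 0.11 and 0.0845).

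Rsad2 was the gene lower in untreated mice, and it was also lower with the combination. Untreated liver T cells lay between 6.92 and 205 CPM with a median of 30.8, and the blood T cells of the same mice between 7.12 and 324 CPM with a median of 127. The ranges overlapped widely, and 5 of 6 mice were lower in liver (-1.61 ± 0.41, adjusted p = 0.00294). Without the animal as a block this call was lost (-1.46, adjusted p = 0.093, edgeR). With the combination the liver libraries held 80.6, 9.54, 7.63, 14 and 78.3 CPM and the blood libraries of the same mice, in the same order, 611, 8.93, 14.6, 45.3 and 266 CPM (-1.59 ± 0.46, adjusted p = 0.0155). That call was lost without the mouse of liver replicate 1 (-1.17, adjusted p = 0.132) or of liver replicate 5 (-1.52, adjusted p = 0.0557), each left out at both sites. The Rsad2 level moved with the run set: the 2 blood libraries of set A held 266 and 611 CPM and the 3 of set B between 8.93 and 45.3 CPM, and in liver set A held 78.3 and 80.6 CPM and set B between 7.63 and 14 CPM. Isg20 in combination blood T cells split the same way, at 82.5 and 137 CPM in set A and between 7.82 and 15.9 CPM in set B. The summed level of the 6 plasmacytoid dendritic cell markers split likewise, at 64.6 and 216 CPM in set A and between 2.39 and 39.9 CPM in set B in liver, and at 21.1 and 37.2 CPM against 16.8 to 19.1 CPM in blood. Among them Klk1 was listed at 0 in 3 of 5 libraries at each site. The part of these cells in the Rsad2 and Isg20 values was not tested.

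Liver T cell libraries carried markers of other cells as well. In untreated mice 5 of 6 plasmacytoid dendritic cell markers were higher in liver, where their sum ran from 74.4 to 412 CPM, against 37 to 67.1 CPM in blood. Most of the blood sum was the single gene Ccr9 (30.4 ± 8.23 CPM, SD). Plasmacytoid dendritic cells are a major source of type I interferon and carry many interferon-stimulated transcripts. All 6 tissue macrophage markers tested were higher in liver as well, their sum running from 10.5 to 275 CPM against at most 0.833 CPM in blood. With all 8 listed markers under 1 CPM in every untreated blood library, that direction was nearly fixed in advance. The part of plasmacytoid dendritic cells or tissue macrophages in the 11 genes was not tested. The only interferon gene of 17 that passed the filter in T cells was Ifng, which was higher in liver in all 6 groups. It was at 50.6 ± 25.5 CPM in liver and 4.55 ± 2.42 CPM in blood of untreated mice (3.50 ± 0.30), and at 15 ± 5.3 and 1.31 ± 0.533 CPM in PBS mice (3.36 ± 0.35).

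Few of the 39 genes passed the test for treatment in T cells. In liver T cells 1 gene was lower and 0 higher with CXCR2i, beside 0.507% of all genes higher and 0.161% lower. This was Ifi27, at 26.4 ± 7.78 CPM with CXCR2i against 35.6 ± 4.83 CPM in untreated mice (-1.29 ± 0.24, adjusted p = 0.0338), and the call was lost without CXCR2i replicate 4. No CXCR2i library here shares a run set with the untreated ones. Without the run term the Ifi27 difference was -0.43 and not called (adjusted p = 0.15, edgeR). The call was also lost without the filter on low counts, with a replicate block, and without libraries labelled Vehicle or isotype. No gene was called by edgeR in the other 5 comparisons. In liver, aPD1 had 0 of the 39 and the combination 7 at an unadjusted p under 0.05, and DESeq2 called 0 in each. In blood, aPD1, CXCR2i and the combination had 2, 11 and 14 at an unadjusted p under 0.05, and DESeq2 called 0, 1 and 2. Among all genes tested in liver, 0% and 0.00769% were called higher and lower with aPD1, and 0.115% and 0.0538% with the combination. In blood the shares were 0.0161% and 0% with aPD1, 0.371% and 0.0646% with CXCR2i, and 2.14% and 0.388% with the combination. Blood Ifi27 with the combination came closest, at 27.8 ± 5.15 against 31.4 ± 3 CPM (-0.45 ± 0.12, adjusted p = 0.0538). The liver to blood difference itself was not called for any of the 39 genes between a treatment and untreated mice by edgeR. For aPD1, CXCR2i and the combination, 1, 12 and 0 had an unadjusted p under 0.05 and DESeq2 called 0, 1 and 0. Among all genes 0%, 1.19% and 0% were higher and 0.0216%, 0.195% and 0% lower.

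Untreated DEN ALIOS mice were compared with PBS mice without a run term, because untreated libraries are all in run set A and PBS libraries in sets C and E. Run and group therefore cannot be told apart in this contrast. In liver T cells 7 of the 39 genes were higher and 0 lower, beside 11.6% and 11.7% of all genes. In blood T cells 12 of 38 tested were higher and 4 lower, beside 11.0% and 8.83%.

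Mx1 in blood T cells lay between 19.9 and 33.4 CPM in 7 untreated mice, with a median of 26.9, and between 6.15 and 11.3 CPM in 8 PBS mice, with a median of 9.28. All untreated values were above all PBS values. The difference was 1.5 ± 0.13 in blood (adjusted p = 6.97e-08) and 1.01 ± 0.17 in liver (adjusted p = 0.000339). Gbp3 was likewise separate in blood, at 47.2 ± 4.01 against 29.9 ± 3.31 CPM (0.67 ± 0.08). Rsad2 had the steepest difference, at 4.11 ± 0.68 in blood and 3.64 ± 0.75 in liver. Its blood values ran from 7.12 to 324 CPM in untreated mice and from 3.21 to 25.2 CPM in PBS mice, so the lowest untreated mouse lay inside the PBS range. Isg20 was higher by 2.62 ± 0.42 in blood and 1.93 ± 0.36 in liver, and Isg15 by 1.76 ± 0.36 in blood.

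Cell type markers also differed in this contrast. In liver T cells 5 of 6 plasmacytoid dendritic cell markers were higher and 0 lower in untreated mice, their sum running from 74.4 to 412 CPM against 23.1 to 92.5 CPM in PBS mice. Siglech, a surface receptor of these cells, was at 103 ± 74.7 CPM in untreated (SD, n = 6) and 2.75 ± 3.17 CPM in PBS livers (SD, n = 8). In blood 1 of the 4 tested was higher and 2 lower, and the sum ran from 37 to 67.1 CPM against 52.6 to 88 CPM. Most of that blood sum was the single gene Ccr9, at 30.4 ± 8.23 CPM in untreated and 63.4 ± 9.26 CPM in PBS mice (SD). Siglech in blood was between 4.74 and 30.4 CPM in untreated mice and at most 0.476 CPM in PBS mice. Klk1, another of the listed markers, was at most 1.46 CPM in untreated blood and was listed at 0 in all 8 PBS blood libraries. All 4 tissue macrophage markers tested of 8 were higher in liver, at 10.5 to 275 against 0 to 17.7 CPM in sum. Of the monocyte markers 2 of 6 tested were higher in liver (100 to 392 against 54 to 312 CPM in sum) and 2 of 4 in blood (85.6 to 182 against 49.7 to 95.6 CPM). All 7 B cell markers were lower in blood, at 8 to 25.9 against 42.5 to 158 CPM in sum, and none was called in liver. The part of these cells in the differences of the 39 genes was not tested.

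The lower genes in blood were Oas2, Oasl1, Slfn5 and Ifit2. Oas2, which makes the messenger that activates RNase L, was at 6.3 ± 2.04 CPM in untreated and 15.4 ± 2.85 CPM in PBS mice, with no overlap (-1.26 ± 0.17, adjusted p = 1.14e-05). Oas1a and Oas3 of the same cluster were higher, at 0.72 and 0.41. In liver Ifi44 (1.58), Ifih1 (0.79), Dhx58 (0.54) and Trim30a (0.45) were the remaining higher genes. Trim30a was also the 1 gene whose liver to blood difference itself was larger in untreated than in PBS mice (0.48 ± 0.13, adjusted p = 0.0162), beside 5.12% of all genes higher and 4.66% lower.

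A fit over all connected T cell groups, in which run sets shared between treatments link set A to sets C and E, gave other values. It called 4 genes higher in blood (Mx1, Dhx58, Gbp3 and Ifi27) and 2 in liver (Gbp7 and Ifi27). Mx1 in blood stood at 2.75 in that fit, while Rsad2 stood at 0.17 in blood and 0.25 in liver, Isg15 at 0.02 and Isg20 at -0.48 in blood. The Rsad2, Isg15 and Isg20 differences were not called with the run set term, and the Mx1 and Gbp3 differences in blood were called with and without it. Oas2 and Oas1a in blood were not called in that fit either, at -1.09 (adjusted p = 0.339) and 1.71 (adjusted p = 0.187). Mx1 in liver kept its direction with the term but not its call (1.19, adjusted p = 0.185).

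**Figure D4:**
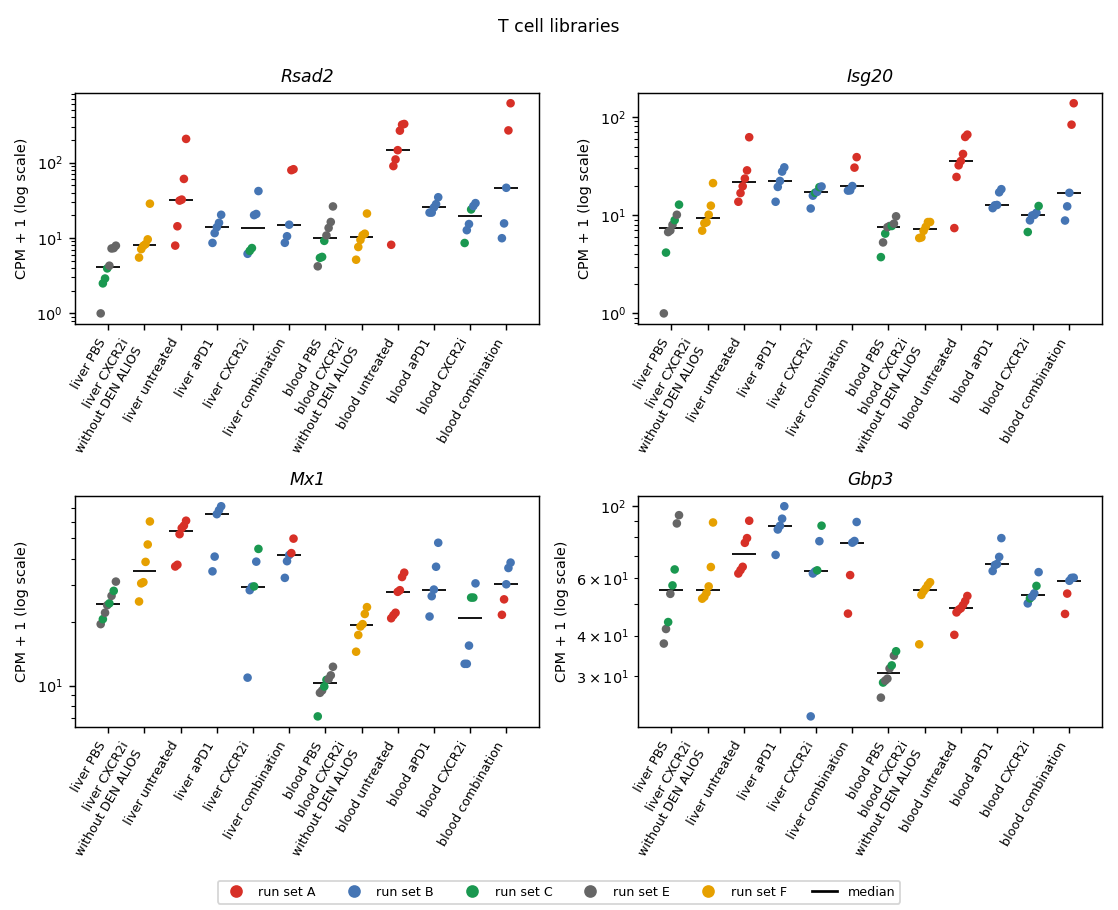
Level in CPM + 1 on a log axis of Rsad2, Isg20, Mx1 and Gbp3 in each T cell library, by site and group, coloured by run set, with a bar at the group median. In blood, untreated Mx1 values (19.9 to 33.4 CPM) lie above all PBS values (6.15 to 11.3 CPM), and Rsad2 in the combination group splits by run set.

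CXCR2i without DEN ALIOS was compared with PBS, again with run and group not separable, since all CXCR2i libraries of this kind are in run set F. In blood T cells 13 of the 39 genes were higher and 1 lower, beside 6.94% and 4.61% of all genes. In liver T cells 2 were higher and 1 lower, beside 5.43% and 6.25%. Mx1 in blood lay between 13.5 and 22.6 CPM, above all PBS values (1.00 ± 0.13, adjusted p = 5.08e-06), and Gbp3 between 36.6 and 57.3 CPM (0.81 ± 0.09), also above all PBS values. Ifit2 was the lower gene in both sites, at 54.3 ± 7.88 against 82.6 ± 6.21 CPM in blood (-0.59 ± 0.08) and 42.1 ± 12.9 against 77.3 ± 24.6 CPM in liver (-0.98 ± 0.21). Rsad2 in blood was not called (-0.05 ± 0.48, adjusted p = 0.966), at 9.92 ± 5.48 and 10.4 ± 7.31 CPM. The call counts in liver rested in part on 1 library: without CXCR2i without DEN ALIOS replicate 6, 0 genes were higher and 3 lower.

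Single libraries stood apart over many of the 39 genes at once. Replicate 6 of liver T cells with CXCR2i without DEN ALIOS had the highest value of its group for 37 of 39 genes, while the blood library of the same mouse did so for 4. Replicate 4 of liver T cells with CXCR2i had the lowest value for 32. In blood neutrophils replicate 4 of the aPD1 group was highest for 31, and the liver library of the same mouse was lowest in its group for 18. The same ranks over all genes are not given here, so these counts describe the libraries and are no result about the 39 genes in particular.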

How the data were processed

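The authors deposited raw read counts per Ensembl gene for all 199 libraries. Listed in the submitters' processing notes are HISAT2 2.1.0, the build GRCm38, HTSeq 0.11.2, Trim Galore 0.6.4 and FastQC 0.11.8, without settings. The 5 summary entries of the table (63.2% of all entries) entered no library size and no test; 37607 of 37713 genes had a symbol.

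Tests were edgeR 4.0.16 quasi-likelihood fits in R 4.3.3 over all genes, normalised by TMM, filtered by filterByExpr at a count of 10 and a total of 15, and adjusted by Benjamini-Hochberg at 0.05. Tissue was fitted with the sequencing run as a term, liver against blood with the animal as a block, and treatments with the run set, except against PBS. The labels name the animal of sorted cells: deviations from group means correlated by 0.221 within 29 neutrophil pairs and by 0.23 within 36 T cell pairs. Where nothing states separate cultures or animals, p-values measure the spread between samples only. Each count was repeated with DESeq2 1.42.0, with RLE scaling, unfiltered, with other terms and with libraries left out.

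All 39 genes may be named; full values go to called genes with large changes, and further names were chosen after their values were seen. The 39 genes and the pathway and marker lists were chosen with earlier results of these data known. On simulated data, 2-fold changes were recovered in 96.8% of cases in tissue (14538 genes, large tumour against liver tissue), 20.6% for the combination against untreated in liver neutrophils (11945 genes) and 42.2% for liver against blood in combination neutrophils (12831 genes).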

Additional observations from a re-analysis of the deposited data

Results flagged for a closer look

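Of 173 sets of replicate values examined for a single library far from the rest of its group, 19 were singled out, where chance gives about 1 in 20. In blood neutrophils of the CXCR2i group, replicate 1 was high for Ifi44 (0.708 CPM), Mx1 (1.42 CPM) and Mx2 (0.708 CPM). In the same group replicate 10 was high for Bst2 (8.37 CPM), Rtp4 (237 CPM) and Cmpk2 (95.2 CPM), and replicate 8 was low for Ifi27l2a (12.2 CPM). Ifi44 in blood neutrophils with aPD1 was above 0 in replicate 2 only (0.129 CPM). Bst2 was low in replicate 1 of untreated liver neutrophils (1.34 CPM).

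In T cells, replicate 7 of untreated blood was low for Rsad2 (7.12 CPM) and Gbp3 (39.2 CPM), and replicate 6 of untreated liver was low for Gbp2 (67.7 CPM). Replicate 4 of liver T cells with CXCR2i was low for Ifit2 (14.7 CPM) and Mx1 (9.92 CPM). Replicate 4 of liver T cells with PBS, a library under 1000000 gene counts, was low for Sp100 (177 CPM), Isg20 (0 CPM) and Ifit2 (30.9 CPM). Replicate 2 of blood T cells with CXCR2i without DEN ALIOS was low for Gbp3 (36.6 CPM) and Gbp2 (71.3 CPM).

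Trim30a was the 1 gene whose liver to blood difference in T cells itself differed between untreated and PBS mice, by 0.48 (adjusted p = 0.0162, edgeR). Its value ran from 0.40 to 0.48 over the alternatives tried, and without a filter on low counts the adjusted p was 0.0529.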

How the results depend on the processing

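Counts below are of the 39 genes called. Of 230 alternative counts, leave-one-out fits aside, 173 were within 1.5 times the reported one; for single named genes, 711 of 814 values kept their direction and side of the threshold, 85 lost and 13 gained the call, and 5 changed sign. DESeq2 gave 15 for PBS and 4 for CXCR2i without DEN ALIOS in T cells of liver against blood, 5 and 8 for liver neutrophils with CXCR2i and the combination, 4 for liver T cells with CXCR2i, 1 and 2 for blood T cells with CXCR2i and the combination, and 2, 2 and 1 for the liver to blood difference with CXCR2i and the combination in neutrophils and with CXCR2i in T cells. RLE factors gave 2 for CXCR2i without DEN ALIOS in T cells of liver against blood, 2 for liver T cells with CXCR2i, and 1 each for blood T cells with CXCR2i and the combination. Without a filter on low counts, T cells of liver against blood gave 5 (aPD1), 14 (PBS) and 5 (CXCR2i without DEN ALIOS), liver T cells with CXCR2i gave 0, and the liver to blood differences gave 1 and 1 (CXCR2i and combination, neutrophils), 1 and 3 (aPD1 and CXCR2i, T cells) and 0 (untreated against PBS). Without a run term, liver neutrophils gave 4 (CXCR2i) and 3 (combination), blood neutrophils 2 (combination), liver T cells 4 (CXCR2i) and blood T cells 5 (aPD1). With aPD1 and no run term, Gbp2 (0.18) and Ifi27 (0.19) in liver T cells and Isg20 (-1.47) and Irf9 (0.03) in blood T cells changed sign.

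Without the doubtful libraries, neutrophils of liver against blood gave 9 (untreated) and 12 (aPD1), T cells with CXCR2i without DEN ALIOS 4, liver neutrophils 2 (CXCR2i) and 10 (combination), and the liver to blood difference of combination neutrophils 2. Without libraries labelled Vehicle or isotype, liver neutrophils gave 0 (CXCR2i) and 3 (combination), blood neutrophils 1 and 0, liver T cells 0 (CXCR2i) and blood T cells 1 (combination). Within run set A, the combination gave 3 in liver and 1 in blood neutrophils. Against PBS of run set C alone, untreated T cells gave 15 in liver and 8 in blood, and CXCR2i without DEN ALIOS 7 in liver; against set E alone, 4 for untreated liver, and 1 in liver and 9 in blood for CXCR2i without DEN ALIOS. With the run set term over connected groups, untreated against PBS gave 2 in liver and 4 in blood, and Isg20 in blood turned to -0.48. The cause was not tested in any of these.

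Replicate numbers did not pair the samples of different treatments (correlation of deviations 0.00159 in neutrophils, -0.0154 in T cells and 0.0637 in tissue). With the number as a replicate block, liver neutrophils gave 0 (CXCR2i) and 3 (combination), blood neutrophils with CXCR2i 4, liver T cells 0 with CXCR2i and 1 for CXCR2i without DEN ALIOS against PBS. Without the animal as a block, liver against blood T cells gave 5 (CXCR2i) and 1 (combination).

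Leaving out 1 library at a time gave 18 to 29 for aPD1 neutrophils of liver against blood (lowest without replicate 4), 1 to 2 for aPD1 and 0 to 2 for combination T cells, and 0 to 2 for blood T cells with the combination. The fits without CXCR2i replicate 4 (0 in liver T cells) and without CXCR2i without DEN ALIOS replicate 6 (5 for liver against blood) were chosen after seeing the data. Depth limits the neutrophil values of Mx1, Mx2 and Ifi44, which are near 0 in blood; a count of 0 allows up to 3 counts.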

Other observations

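The machinery that senses nucleic acid upstream of interferon was counted in neutrophils beside all genes tested. Of 12 adaptors and kinases tested, 5 were higher and 1 lower in liver than in blood in untreated mice (26.2% and 17.1% of all genes), 7 and 1 with aPD1 (32.8% and 21.9%), 4 and 2 with CXCR2i (23.6% and 16.8%) and 6 and 2 with the combination (24.6% and 21.0%). Ikbke, the kinase that activates interferon regulatory factors, was higher by 4.41 ± 0.40 in untreated mice, at 64 ± 13.6 CPM in liver and 3.07 ± 1.3 CPM in blood (SD, n = 6). With aPD1 it was higher by 4.04 ± 0.42, with CXCR2i by 2.94 ± 0.30 and with the combination by 2.79 ± 0.33. Myd88, the adaptor of most Toll-like receptors, was lower, at 211 ± 92.3 against 467 ± 184 CPM in untreated mice (-1.24 ± 0.28) and at -1.58 ± 0.31, -0.90 ± 0.21 and -1.10 ± 0.23 with aPD1, CXCR2i and the combination. The feedback inhibitor Cish was higher in untreated mice (3.98 ± 0.58), with aPD1 (3.30 ± 0.56), with CXCR2i (3.02 ± 0.43) and with the combination (2.39 ± 0.45). Tissue macrophage and hepatocyte markers were higher in these liver libraries as well, and their part was not tested.

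In large tumours Ikbke was likewise higher than in liver tissue, at 64.4 ± 16.1 against 33 ± 4.05 CPM (0.97 ± 0.11), while the adaptor Mavs was lower, at 82.7 ± 18.6 against 131 ± 14.1 CPM (-0.73 ± 0.08). In untreated mice Cxcl9 was at 8.7 ± 7.6 CPM in liver T cells and listed at 0 in each of the 6 paired blood T cell libraries.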
